A study of Homo sapiens with 8 samples.

Results

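Chromatin accessibility at 9 genes of the integrated stress response was described in U2OS cells, a human osteosarcoma line, from 8 lists of ATAC-seq peaks. In ATAC-seq, open stretches of chromatin collect reads because the transposase Tn5 cuts and tags DNA that no nucleosome covers. The genes were ATF4, DDIT3, ASNS, TRIB3, PPP1R15A, SESN2, CHAC1, DDIT4 and EIF2AK4, chosen by name, and their windows ran from 10 kb before to 10 kb after each GENCODE gene on build hg38. Of 1435500 distinct intervals in the 8 lists, here called regions, 329 overlapped these windows. Regions that touched or overlapped between lists were joined into 547779 sites, of which 97 lay in the windows.

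Both wild-type (WT) cells and ASH1L-/- cells were used, the latter lacking the histone methyltransferase ASH1L after deletions made with CRISPR/Cas9. They were either unchallenged or taken 3 h post UV (a UV-C dose of 20 J/m2), with 2 biological replicates in each of the 4 groups. All cells grew in low-glucose medium with fetal calf serum and were treated with DNase before tagmentation. The ASH1L-/- cells were derived from isolated colonies, so genotype and clone cannot be told apart, and how many colonies gave these libraries was not given in the sources used here. A peak list cannot show the deletions themselves, and they were not checked here.

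The integrated stress response lowers general protein synthesis through phosphorylation of the initiation factor eIF2α by stress kinases. Among these is GCN2, the product of EIF2AK4, which senses uncharged tRNA and is known to respond to UV light. Translation of ATF4 then rises, and this transcription factor binds C/EBP-ATF response elements (CARE) near genes of amino acid supply and stress signalling.

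The promoters that hold this element are shown. Among the 9 genes, the 250 bases before the RefSeq start held a CARE match, TGATGNAA on either strand, at ASNS and CHAC1. The same match occurred in 3.14% of 35116 RefSeq promoters. PPP1R15A is shown with them, chosen after its values were seen, for its cAMP response element (CRE) TGACGTCA, which 1.65% of promoters held. The 250 bases come from RefSeq on GRCh38.p14, are written 5′ to 3′ on the strand of the gene and end at the base before the start. They lie at chr7:97872409-97872658 on the minus strand for ASNS, at chr15:40953221-40953470 on the plus strand for CHAC1 and at chr19:48872171-48872420 on the plus strand for PPP1R15A. GENCODE places further starts of ASNS and PPP1R15A inside these stretches. The GENCODE span of CHAC1 begins before its stretch, at chr15:40952962. Annotated exons covered 134 of the 250 bases at ASNS, 209 at PPP1R15A and all 250, with the CARE match, at CHAC1. Capitals mark the CARE match in ASNS and CHAC1 and the CRE in PPP1R15A:
ASNS promoter: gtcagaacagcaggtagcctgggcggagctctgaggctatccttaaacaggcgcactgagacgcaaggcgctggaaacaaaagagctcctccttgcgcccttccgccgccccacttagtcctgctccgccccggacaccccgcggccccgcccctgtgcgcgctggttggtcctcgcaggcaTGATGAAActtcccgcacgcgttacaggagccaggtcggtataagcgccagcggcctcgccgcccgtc
CHAC1 promoter: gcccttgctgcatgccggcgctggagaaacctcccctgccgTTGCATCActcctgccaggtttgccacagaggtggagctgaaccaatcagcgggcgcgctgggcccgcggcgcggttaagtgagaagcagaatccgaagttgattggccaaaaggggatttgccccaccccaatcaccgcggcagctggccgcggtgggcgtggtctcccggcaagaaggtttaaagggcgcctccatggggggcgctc
PPP1R15A promoter: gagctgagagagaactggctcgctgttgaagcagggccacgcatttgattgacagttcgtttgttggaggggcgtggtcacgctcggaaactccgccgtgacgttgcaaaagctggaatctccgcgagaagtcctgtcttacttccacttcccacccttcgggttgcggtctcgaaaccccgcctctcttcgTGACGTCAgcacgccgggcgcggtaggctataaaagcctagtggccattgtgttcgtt

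The CARE match began 68 bases before the start of ASNS (position -68) and at -209 at CHAC1, and the CRE began at -58 at PPP1R15A. The box CCAAT on either strand, held by 32.0% of promoters, was present before DDIT3, SESN2, CHAC1 and DDIT4. In TRIB3 the matches lay outside these 250 bases, in annotated exon sequence past the GENCODE canonical start, within the 300 bases around the summit of its region on chr20. There 3 copies of the CARE match followed each other at intervals of 33 bp, at chr20:380881-380910, chr20:380914-380943 and chr20:380947-380976 on the plus strand of hg38. The 30 bases around each match are shown because they were identical, with the match in capitals:
TRIB3 repeat 1: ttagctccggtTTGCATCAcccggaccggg
TRIB3 repeat 2: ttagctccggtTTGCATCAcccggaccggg
TRIB3 repeat 3: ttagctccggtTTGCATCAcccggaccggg

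Of the 23 sites in the windows that were present in all 8 lists, 6 held a CARE match within 150 bases of their summit, and all 6 were among the 13 promoter sites. Of all 60324 sites present in every list, 5.35% held one. The further promoter matches were at SESN2 (TTTCATCA), at the upstream start of TRIB3 (TGATGGAA) and in the region 1.4 kb past the canonical TRIB3 start (TGATGTAA). A match describes letters and does not show binding.

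The lists held between 158198 and 220783 regions each. No read counts were in the lists, but the peak caller's equations gave each region's pileup at its summit and its local background, and the lowest background of a list is its genome mean pileup. This mean was between 1.39 and 5.87, highest in ASH1L-/- unchallenged replicate 1 and lowest in replicate 2 of that group, so pileups below are given as multiples of it. At each of the 9 genes, however, ASH1L-/- unchallenged replicate 1 had the lowest such multiple at the promoter, for summit pileup and for local background. The part of this library in the size of UV and genotype differences on these scales was not tested. The fold enrichment, the ratio of pileup to local background, had a percentile 75 between 3.64 and 9.6 and was higher in every UV list than in every unchallenged list (log2 difference 0.568, exact permutation p = 0.0286, two-sided). Ranks were therefore taken within each list, and the percentile of a region is the share of that list's regions with a lower fold enrichment. Of the mesenchymal marker genes, PRRX1, RUNX2, COL1A1 and VIM had a promoter region in all 8 lists and TWIST1 in 2. The promoters of PTPRC, CD3E and ALB had a region in at most 1 list and HNF4A in 4, but the epithelial gene EPCAM had one in all 8. Of these markers, COL1A1 and EPCAM also ranked lower in every UV list than in every unchallenged list, with differences of -10.7 and -7.31 percentile points.

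All 9 genes had a promoter region, within 1 kb of an annotated start, in every list. The strongest one per gene stood high in its list, with a median percentile over the 9 genes between 82.3 in WT UV replicate 2 and 94.8 in ASH1L-/- unchallenged replicate 1. Over all genes these medians were between 80.9 and 90.4. PPP1R15A was the lowest of the 9 in each list, and EIF2AK4, ASNS and SESN2 stood near the top.

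At 3 h post UV, 5 of the 9 promoters ranked lower in their lists, with no overlap between the 4 UV and the 4 unchallenged libraries. Over all 19970 protein-coding genes 13.8% did so and 1.82% ranked higher in the same way, and among the 13492 genes with a promoter region in every list 20.1% ranked lower. The median difference was -8.59 percentile points over the 9 genes, -1.54 over all genes and -2.57 over these 13492 genes. With 4 libraries against 4 an exact permutation test cannot go below p = 0.0286, and no gene passed after Benjamini-Hochberg adjustment over all 19970 genes. The lowest adjusted p was 0.183, and 11412 genes would need the smallest p for it to pass.

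PPP1R15A, which encodes the GADD34 subunit that directs dephosphorylation of eIF2α, showed the widest difference of the 9. Its percentile was 77.3 and 79.0 in unchallenged WT cells and 84.1 and 80.8 in unchallenged ASH1L-/- cells. After UV it was 59.7 and 34.3 in WT cells and 54.4 and 61.3 in ASH1L-/- cells. All 4 UV values lay below all 4 unchallenged values, with a mean difference of -27.9 points (adjusted p = 0.183 in the exact permutation test). In ASH1L-/- UV replicate 2 the strongest region was a second one of this promoter, 0.8 kb past the start, and the site at the start had a percentile of 57.7 there.

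ATF4, the transcription factor of the response, had percentiles of 92.5, 91.7, 94.8 and 92.9 in the unchallenged lists (WT replicates first). These were 88.8, 73.4, 87.5 and 86.5 after UV, lower in each library. DDIT4, which encodes the mTORC1 inhibitor REDD1, went from 96.1, 92.7, 96.8 and 94.3 to 88.9, 79.6, 87.6 and 87.8 with no overlap. WT UV replicate 2 was the lowest library for both genes, as it was for PPP1R15A.

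EIF2AK4 (GCN2) had a promoter among the strongest regions of the unchallenged lists, at 99.8, 99.8, 99.2 and 99.3. After UV it stood at 97.7, 90.9, 96.2 and 97.2. TRIB3, a pseudokinase that binds ATF4, was at 90.9, 97.0, 92.0 and 95.9 in unchallenged cells and at 84.0, 82.3, 76.6 and 80.8 after UV. Its strongest promoter region lay at an upstream start, 18.1 kb before the canonical one. At the canonical promoter, with the CARE repeats, the percentiles were 73.3, 79.5, 83.2 and 77.7 without UV and 81.6, 64.2, 75.3 and 78.4 with it, which overlapped (difference -3.55, exact permutation p = 0.514).

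The other 4 promoters overlapped between the groups. DDIT3, the gene of the pro-apoptotic factor CHOP, had 90.8, 84.7, 92.8 and 83.8 without UV against 83.6, 71.9, 84.1 and 78.2 with it (difference -8.59, exact permutation p = 0.0571). Its region also lay within 1 kb of a start of MBD6, which runs the other way. ASNS, asparagine synthetase, stayed between 93.5 and 98.8 in all 8 lists (difference -2.13, exact permutation p = 0.2). SESN2, a leucine sensor upstream of mTORC1, was between 94.9 and 99.3 (difference -0.85, exact permutation p = 0.571). CHAC1, which encodes a glutathione-degrading enzyme, was the 1 gene with a positive mean difference (2.34, exact permutation p = 0.486).

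**Figure D1:**
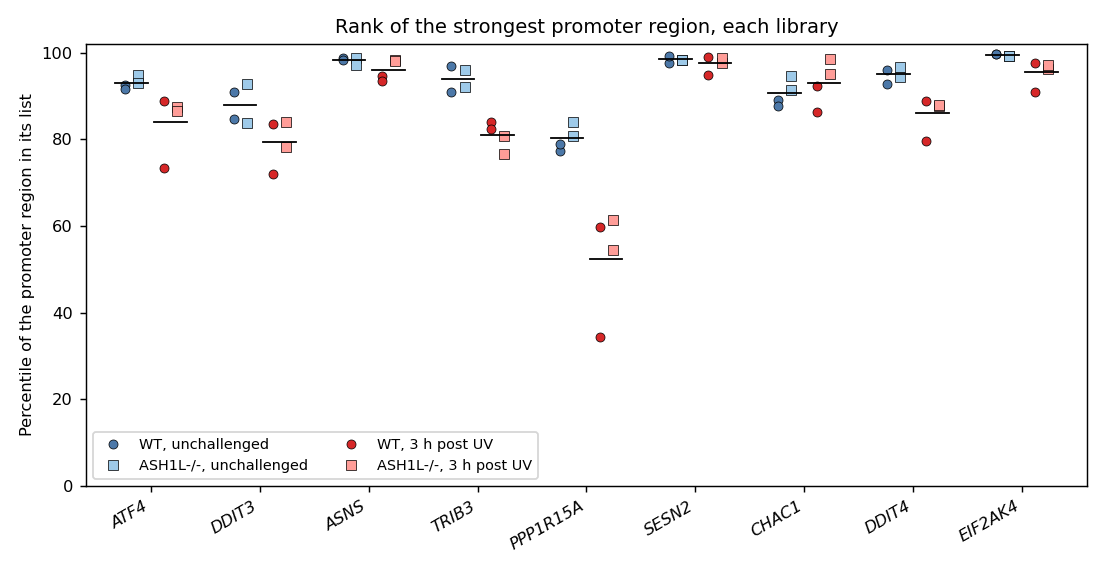
Percentile of the strongest promoter region in its own peak list (vertical axis, 0 to 100) for the 9 genes in each of the 8 libraries; black bars are the means of the 4 unchallenged and the 4 UV libraries. The UV points of PPP1R15A lie between 34.3 and 61.3, below its unchallenged points at 77.3 to 84.1, whereas those of ASNS, SESN2 and CHAC1 overlap.

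A rank depends on the other regions of its list, so the promoters were also compared on scales that do not. On the log2 fold enrichment, 1 of the 9 genes was lower after UV without overlap and 1 was higher. The background was 0.586% of genes lower and 10.6% higher, with a median shift of 0.148 over all genes. Over the genes with a promoter region in every list the median shift was 0.2. PPP1R15A was the lower one, with fold enrichments of 5.28, 6.59, 5.07 and 6.71 in unchallenged cells (WT replicates first) and 4.32, 3.75, 4.34 and 4.38 after UV, a log2 difference of -0.49. CHAC1 was the higher one.

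At CHAC1 the pileup at the summit was 75 and 66 reads in unchallenged WT cells and 109 and 67 in unchallenged ASH1L-/- cells. After UV it was 155 and 249 in WT cells and 204 and 303 in ASH1L-/- cells, above every unchallenged library. As multiples of the genome mean these pileups were 35.7, 37.9, 18.6 and 48.2 without UV and 61.3, 93.1, 83.4 and 108.0 with it. The lowest, 18.6, was in ASH1L-/- unchallenged replicate 1, the library with the highest genome mean. The log2 UV difference at CHAC1 was 1.35 (adjusted p = 0.297 in the exact permutation test). The median was 0.377 over all genes and 0.445 over those with a promoter region in every list. The fold enrichment at CHAC1 was 8.45, 9.43, 7.3 and 11.8 without UV and 12.2, 13.1, 14.5 and 17.0 with it, a log2 difference of 0.63.

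CHAC1 was the 1 gene of the 9 with a higher pileup over the genome mean without overlap, and none was lower. Over all genes 9.41% were higher and 0.22% lower. SESN2 came close, with multiples of 51.9, 94.8, 29.3 and 73.4 without UV and 111.0, 127.0, 89.5 and 114.0 with it (log2 difference 0.94, exact permutation p = 0.0571). PPP1R15A, whose rank and fold enrichment were lower, had pileups of 31.4, 43.7, 15.2 and 37.4 times the genome mean without UV and 36.0, 44.1, 33.1 and 31.6 times with it, which overlapped. More cells with an open promoter and more cutting per cell cannot be told apart in these bulk libraries.

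The local background of a summit, solved from its fold enrichment and p-value, was compared in the same way. By the peak caller's default it comes from a wider stretch around the summit with the region included, but the settings behind these lists were not checked, so the width of that stretch is not known. This comparison was added after the pileups were seen. The local background over the genome mean was higher after UV without overlap at PPP1R15A, SESN2 and CHAC1, 3 of the 9 genes. Over all genes 12.6% were higher and 0.551% lower, with a median shift of 0.208 on the log2 scale. Over the genes with a promoter region in every list the median shift was 0.311.

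At PPP1R15A the local background was 5.57, 6.14, 2.85 and 4.96 times the genome mean in unchallenged cells (WT replicates first). After UV it was 8.02, 11.5, 7.31 and 6.95 times (log2 difference 0.82), while its summit pileups overlapped. SESN2 went from 3.16, 4.27, 2.09 and 4.04 to 5.59, 7.02, 4.96 and 6.15 (log2 difference 0.85). CHAC1 went from 3.81, 3.51, 2.4 and 3.42 to 4.65, 6.75, 5.38 and 5.99 (log2 difference 0.80). The difference at each of these 3 genes was above that of at least 97.6% of all genes (adjusted p = 0.218 for each, exact permutation test). That share includes genes without a promoter region in some or all lists, which entered with 0 there. DDIT4 had the highest local background of the 9 genes in each library, between 6.2 and 14.1 times the genome mean without UV and between 12.6 and 16.9 times with it (log2 difference 0.65, exact permutation p = 0.0857).

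**Figure D2:**
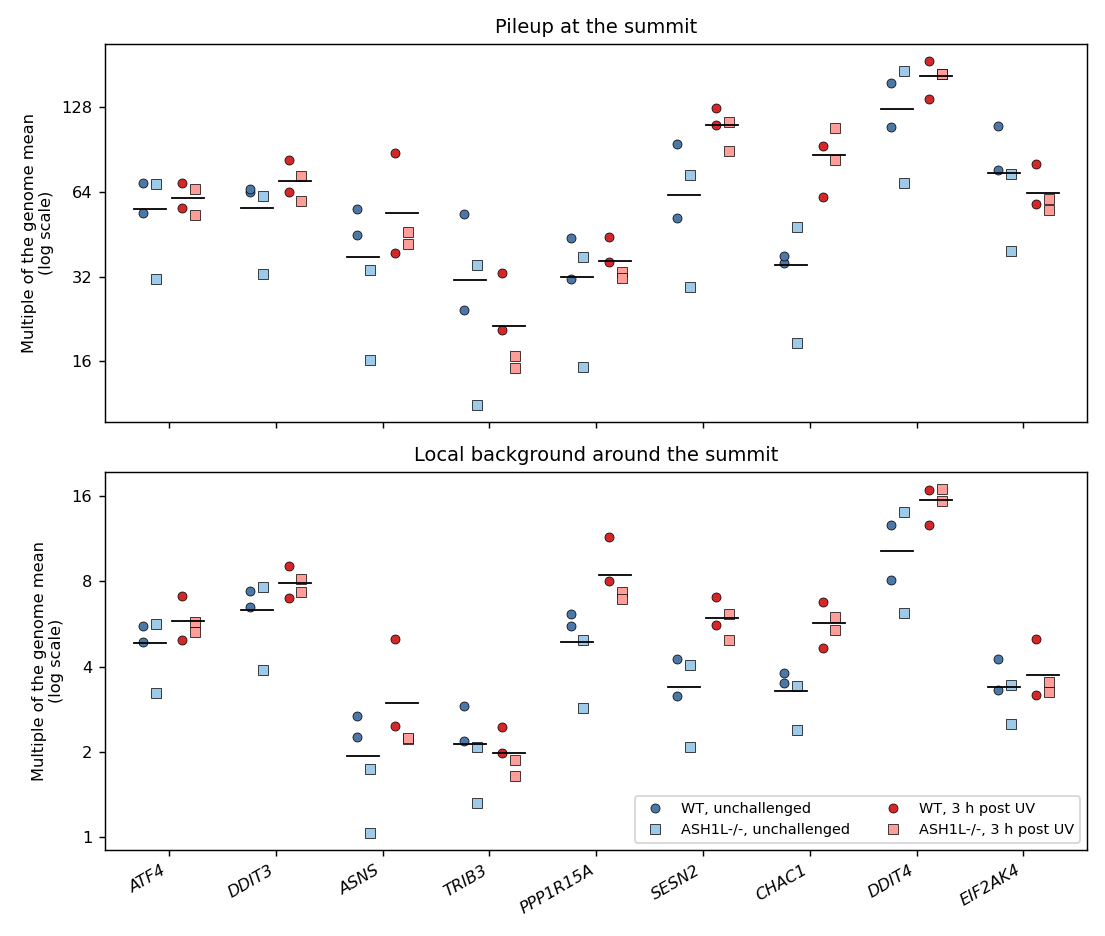
Summit pileup (upper panel) and local background (lower panel) of the strongest promoter region, both as multiples of the library's genome mean pileup on a log axis, for the 9 genes in each of the 8 libraries; black bars are the arithmetic means of the 4 unchallenged and the 4 UV libraries. CHAC1 is above its unchallenged libraries in both panels, and PPP1R15A in the lower panel, at 6.95 to 11.5 after UV against 2.85 to 6.14.

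The promoter regions of 3 genes were wider in every UV library, against 11.3% of all genes wider and 0.396% narrower. DDIT3 had a region of 1098, 788, 808 and 952 bp without UV and of 1114, 1191, 1241 and 1119 bp with it, 255 bp more on average. CHAC1 went from 1072, 933, 1042 and 928 bp to 1130, 1093, 1098 and 1107 bp, and DDIT4 from 1382, 1388, 1457 and 1362 bp to 1547, 1571, 1491 and 1563 bp. The median width of all regions was likewise larger in every UV list (356 to 444 bp) than in every unchallenged list (242 to 291 bp), and its part in these promoter widths was not tested.

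The 9 windows differed in how many sites they held, promoter sites included. EIF2AK4, the longest gene at 101.0 kb, had 28 sites, of which 22 were in 1 list. TRIB3 had 18 and SESN2 17, whereas ASNS and DDIT4 had 3 each. Of the 97 sites 23 (23.7%) were in all 8 lists and 45 (46.4%) in 1 list, against 11.0% and 60.5% of all 547779 sites. Promoter sites made up 22 of the 97, and 13 of these were in every list, but of 32 intronic sites 1 was.

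**Figure D3:**
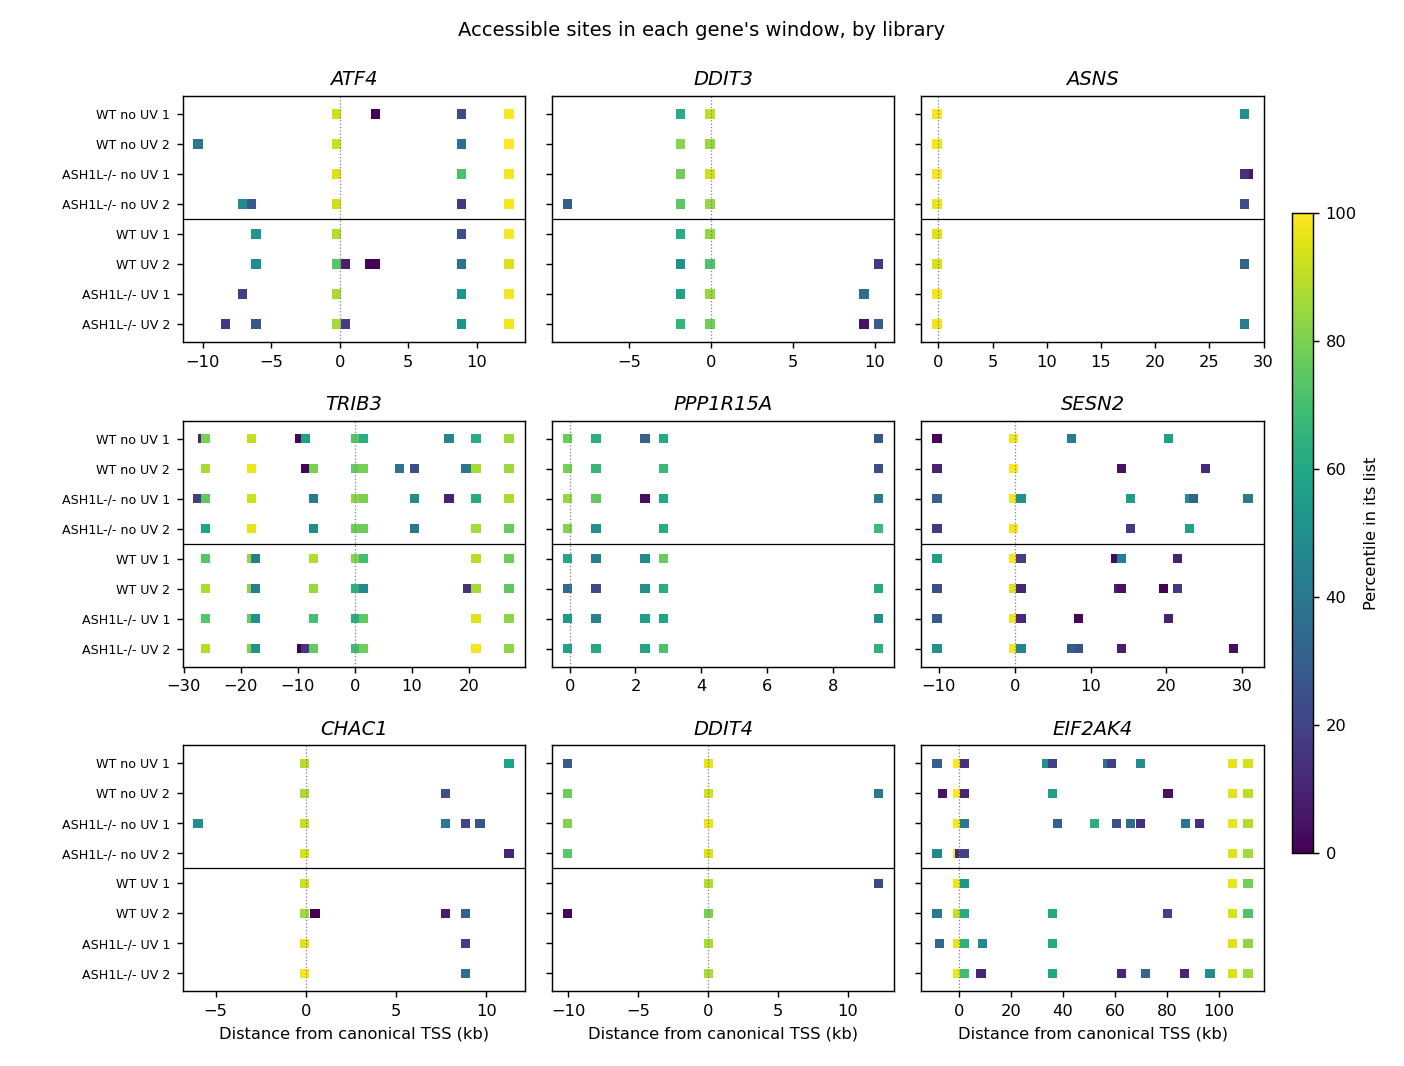
Sites in the window of each gene by distance of their summit from the canonical start (horizontal axis, kb) and library (rows, with unchallenged libraries above the line and UV libraries below); colour gives the percentile in the library's own list. The column 17.4 kb before the TRIB3 start is filled in the 4 UV libraries and empty in the 4 unchallenged ones.

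The number of regions per window did not separate the libraries by UV or by genotype for any of the 9 genes, against 2.32% and 3.31% of all genes in either direction. The 1 site present in all 4 lists of a treatment and in none of the other lay in TRIB3. Among all sites 0.686% were present in the 4 UV lists alone and 0.0969% in the 4 unchallenged lists alone. It covered chr20:363182-363738, within TRIB3 just past its upstream start, and its summit was 17.4 kb before the canonical start, in an intron. Lying within 1 kb of that upstream start, it counted among the 22 promoter sites. Its percentile was 42.7 and 42.1 in WT UV cells and 49.7 and 50.9 in ASH1L-/- UV cells, and its fold enrichment was 3.32, 4.33, 3.95 and 3.58. No region was called there in the unchallenged lists, so accessibility of this site was not detectable in them, not shown to be absent. The smallest pileup of a region was between 5 and 12 reads per list, and the pileup at this site was 19 in replicate 1 of both UV groups.

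Among the 23 sites present in all 8 lists, 1 ranked higher after UV without overlap and 5 lower, against 5.99% and 12.3% of the 60324 sites of this kind. This comparison was added after the lists were examined. The 5 lower ones were the promoter sites of ATF4, TRIB3 (upstream start), PPP1R15A, DDIT4 and EIF2AK4. The higher one was in EIF2AK4 itself, in an intron 2.3 kb past its start, at chr15:39936063-39936620. There the percentile was 14.8, 10.1, 40.3 and 19.5 in unchallenged cells (WT replicates first) and 52.4, 61.5, 63.9 and 69.1 after UV. The difference was 40.6 points (adjusted p = 0.156 in the exact permutation test), opposite in sign to the -4.04 points at the promoter of the same gene. The fold enrichment there was 2.55, 2.48, 2.4 and 2.9 without UV and 3.73, 6.75, 5.24 and 5.29 with it.

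On the log2 fold enrichment, which does not depend on rank, 5 of the 23 sites were higher after UV without overlap and 1, the PPP1R15A promoter, was lower. Of all sites in every list 21.3% were higher and 1.03% lower, with a median difference of 0.335. The difference was larger at an intergenic site at chr20:401583-402463, 21.2 kb past the canonical TRIB3 start and between TRIB3 and RBCK1. Its fold enrichment was 3.78, 9.05, 2.84 and 8.22 in unchallenged cells and 10.7, 13.3, 14.6 and 17.0 after UV, a log2 difference of 1.37. The 4 UV values were all above the 4 unchallenged ones, which themselves spread widely within each genotype. On the percentile scale the groups overlapped there (difference 17.9, exact permutation p = 0.0571).

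The remaining sites that were higher on this scale were the CHAC1 promoter, the EIF2AK4 intron (log2 difference 0.996), an exonic site of PPP1R15A and a site 10.2 kb before SESN2. In an exon of PPP1R15A, at chr19:48875045-48875637 and 2.8 kb past the start, the fold enrichment was 3.58, 4.64, 2.8 and 4.19 without UV and 6.84, 6.91, 4.73 and 5.66 with it. A neighbouring exonic site, 2.3 kb past the start, was in all 4 UV lists and in 2 of the unchallenged lists. PPP1R15A had a lower promoter enrichment and a higher enrichment at the exonic site 2.8 kb past the start in the same UV libraries. On the percentile scale the groups overlapped at this exonic site (difference 4.47, exact permutation p = 0.314). At SESN2, the site at chr1:28248680-28249868 had 2.08, 2.44, 2.29 and 2.78 without UV and 3.98, 3.16, 2.99 and 3.53 with it. A second site of SESN2, 0.8 kb past its start, also counted as a promoter site. It was in all 4 UV lists at percentiles of 18.6, 10.4, 11.6 and 45.0, and in 1 unchallenged list (ASH1L-/- replicate 1) at a higher one, 50.6.

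A site 10.0 kb before DDIT4, at chr10:72263639-72264096, went the other way. It was in all 4 unchallenged lists, at percentiles of 28.5, 77.5, 80.9 and 74.4, and in 1 UV list (WT replicate 2) at 1.22. The flanking site of highest rank in the ATF4 window was the promoter of RPS19BP1, between 94.9 and 99.4 in all 8 lists, and in the EIF2AK4 window it was the promoter of SRP14, between 93.8 and 96.9. None of the flanking sites of ASNS, CHAC1 or DDIT3 was in more than 5 lists.

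**Figure D4:**
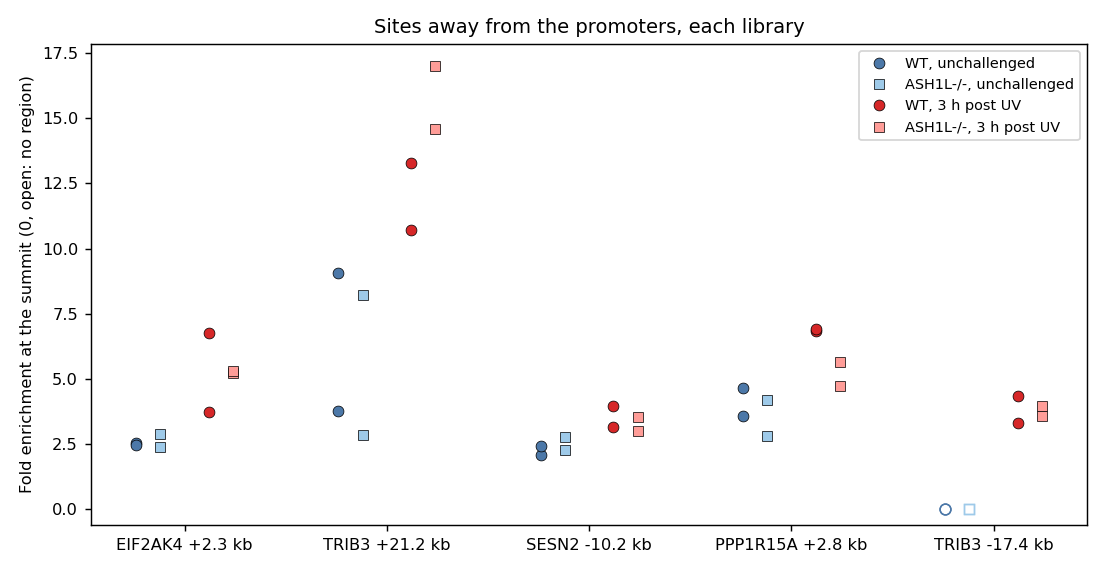
Fold enrichment at the summit (vertical axis) of 5 sites away from the canonical promoters in each of the 8 libraries; open symbols at 0 mark lists without a region. At the TRIB3 site 21.2 kb past the start the UV values run from 10.7 to 17.0 and the unchallenged values from 2.84 to 9.05.

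Between WT and ASH1L-/- cells none of the 9 promoters separated in rank, against 2.61% of all genes in either direction. The nearest was CHAC1, with 89.0, 87.7, 92.2 and 86.2 in WT cells and 91.3, 94.5, 95.0 and 98.5 in ASH1L-/- cells, unchallenged first (difference 6.04, exact permutation p = 0.0571). Promoter widths separated at none of the 9 genes (1.96% of all genes), the sites in all 8 lists at none of 23 (4.08% of all such sites), and no site was confined to the 4 lists of a genotype (0.263% of all sites). A value that separates UV from unchallenged libraries cannot separate the genotypes, since each genotype holds both. This fixed the result for 5 of the 9 promoters in rank and for 3 in width. It also did so for the 5 lower and 1 higher of the 23 sites. Over all genes, the 13.8% that ranked lower and the 1.82% that ranked higher after UV could not separate either.

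The local background around the ASNS promoter was the 1 promoter value that separated the genotypes. It was 2.26, 2.68, 2.47 and 4.99 times the genome mean in WT cells and 1.04, 1.75, 2.22 and 2.24 times in ASH1L-/- cells, unchallenged first. The lowest value, 1.04, was in ASH1L-/- unchallenged replicate 1, the lowest library on this scale at each of the 9 genes. The log2 difference was -0.76 (adjusted p = 0.306 in the exact permutation test), and 8.08% of all genes were lower in the same way. ASNS also had its narrowest promoter regions in the unchallenged ASH1L-/- libraries, at 535 and 511 bp against 788 bp or more in the other 6.

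The UV difference in rank did not separate by genotype at any of the 9 genes, against 0.706% of all genes in either direction. For the 5 promoters with no overlap between UV and unchallenged libraries this was fixed in advance. Each side of the contrast holds libraries of both kinds, so these promoters could not separate on it. With 2 libraries against 2, an exact test within a genotype cannot go below p = 0.333. For the 5 promoters chosen for their lower rank after UV, which fixes the direction in both genotypes, the differences were -5.52 to -31.1 points in WT and -2.56 to -24.6 points in ASH1L-/- cells. At the CHAC1 summit the UV difference in log2 pileup over the genome mean was 1.04 in WT and 1.66 in ASH1L-/- cells.

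For context, 47 further genes of the response were counted by the same measure, among them eIF2 kinases and eIF2B subunits, transcription factors, amino acid enzymes and transporters, tRNA synthetases and ER stress proteins. Promoter regions were in all 8 lists for 45 of them. After UV 12 of the 47 ranked lower without overlap and 1 ranked higher, against 13.8% and 1.82% of all genes, or 20.1% lower among genes with a promoter region in every list. On the log2 fold enrichment 6 were higher and 0 lower, against 10.6% and 0.586% of all genes. The lower ones in rank were EIF2S1, ATF5, CEBPG, XBP1, PHGDH, MTHFD2, SLC3A2, SLC38A2 and the tRNA synthetase genes AARS1, GARS1, WARS1 and MARS1.

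The 1 that ranked higher was SLC7A5, which encodes the light chain of the amino acid transporter LAT1. Its promoter had a region in 1 of the 4 unchallenged lists (WT replicate 2), at percentile 9.06, and in all 4 UV lists at 60.6, 57.5, 59.0 and 60.9. SLC3A2, the gene of its heavy chain partner, was among the lower ones. Between the genotypes, 1 of the 47 genes separated, against 2.61% of all genes, namely SHMT2, a mitochondrial enzyme of serine and glycine metabolism, which was 7.24 points higher in ASH1L-/- cells (adjusted p = 1.0 in the exact permutation test). The genes that separated by UV could not separate the genotypes.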

How the data were processed

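ATAC-seq was measured in 8 U2OS libraries, grouped by sample titles. According to the submitters' processing notes, the authors used cutadapt 1.9.1, Bowtie2 2.4.5 (hg38), SAMtools 1.7, Picard, bedtools 2.29.2 and MACS2 2.2.7.1, calling peaks in each library without pooling. The deposited fold enrichment is the ratio of summit pileup plus 1 to local background plus 1. The deposited lists also gave a −log10 p-value, down to p = 0.01, and a −log10 q-value from the authors' peak caller. None was normalised between libraries, and read depth was not in the lists.

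A region was a distinct interval with its record of highest fold enrichment. Pileup and background were solved as a whole number from fold enrichment and the Poisson p-value, which succeeded for 100% of regions. Promoters were regions within 1 kb of a GENCODE 44 start of a protein-coding gene, and the strongest counted. A gene without a promoter region entered with 0. Exact two-sided permutation tests over 70 assignments of 4 against 4 libraries were adjusted over all 19970 genes, and a gene was called where groups did not overlap. Each p-value is the share of these assignments with an absolute mean difference at least as large as the observed one, and covers these libraries only. Labels were exchanged over all 8 libraries, without blocks for genotype in the UV test or for UV in the genotype test. The UV by genotype contrast used the same 70 assignments. Scripts (Python 3.11.15, numpy 2.4.6, pandas 2.3.3) were tested on simulated data. The members, lists and rules were chosen with earlier results of these data known. The rule named the 9 genes, their promoter and strongest flanking sites, separating sites, called pathway genes and promoters with a CARE match. Alternatives were q-value thresholds, the canonical start, window sizes, other scales, equal list sizes, overlap, left-out libraries and a replicate block. The local background and the sites in all 8 lists were added later. The sequences of some sites are not reported here.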

Additional observations from a re-analysis of the deposited data

Results flagged for a closer look

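The ASNS promoter moved in opposite directions in the genotypes on the log2 fold enrichment. Its fold enrichment was 16.6 and 17.3 in unchallenged WT cells and 13.7 and 16.4 after UV, so both UV values were lower. In ASH1L-/- cells it was 13.6 and 14.0 unchallenged and 17.7 and 16.3 after UV, so both were higher. The gap between these UV effects, WT less ASH1L-/-, was -0.474 on the log2 scale, with an exact permutation p of 0.0571 over 8 libraries, unadjusted. Over all genes 14.3% had a more negative gap. The median gap was -0.0733 over all genes and -0.124 over those with a promoter region in every list. On the percentile scale the gap at ASNS was -4.74 points (exact permutation p = 0.114, unadjusted).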

How the results depend on the processing

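In 138 of 163 recomputed counts the number of members called stayed within 1.5 times its value, and 237 of 288 recomputed differences of single promoters kept their direction and side of the threshold. Counts that were 0 with the main settings, such as genotype calls in promoter rank, are among the 163. The UV count of 5 promoters was 2 on the log2 fold enrichment (PPP1R15A, lower, and CHAC1, higher and not among the 5) and 1 on the log2 pileup over the genome mean (CHAC1, so none of the 5). With the canonical start only it was 4, as TRIB3 then overlapped (difference -3.55, exact permutation p = 0.514). On the fold scale the UV difference turned positive at DDIT3 (0.0386), ASNS (0.0628) and SESN2 (0.176). On the pileup scale it was positive at ATF4 (0.187), DDIT3 (0.363), ASNS (0.568), PPP1R15A (0.273), SESN2 (0.939) and DDIT4 (0.464). Without 1 library the count was 5 to 6, and SESN2 ranged from -1.34 to 0.0466, ASNS from -2.87 to -1.27 and CHAC1 from 0.506 to 4.59. Without WT UV replicate 2 the called differences shrank to -5.39 at ATF4 and -2.5 at EIF2AK4.

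Genotype differences, none of them called, turned negative on the fold scale at ATF4 (-0.0376), DDIT3 (-0.141), ASNS (-0.0592), SESN2 (-0.153), DDIT4 (-0.0946) and EIF2AK4 (-0.218). On the pileup scale they did so at ATF4 (-0.238), DDIT3 (-0.337), ASNS (-0.751), PPP1R15A (-0.469), SESN2 (-0.416), DDIT4 (-0.0881) and EIF2AK4 (-0.506). With the canonical start TRIB3 turned to 3.97. Without 1 library, genotype differences ranged from -0.586 to 5.78 at ATF4, -1.66 to 4.65 at DDIT3, -5.41 to 1.03 at TRIB3, -1.85 to 13.0 at PPP1R15A, -0.392 to 1.07 at SESN2, -0.94 to 4.55 at DDIT4 and -1.1 to 1.88 at EIF2AK4. WT UV replicate 2 decided 6 of these signs.

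Without 1 library, genotype calls were 0 to 1 for promoters (1, CHAC1, without WT UV replicate 1 or ASH1L-/- unchallenged replicate 1), 0 to 1 for widths (1 without WT unchallenged replicate 2 or ASH1L-/- unchallenged replicate 1), 0 to 1 for sites in all 8 lists (1 without WT UV replicate 1, WT unchallenged replicate 2 or either unchallenged ASH1L-/- library) and 1 to 2 for the local background (2 without WT UV replicate 1 or ASH1L-/- unchallenged replicate 2). UV by genotype calls were 0 to 1 (1 without ASH1L-/- unchallenged replicate 1). UV calls were 0 to 1 for regions per window (1 without either unchallenged ASH1L-/- library) and 7 to 10 for sites in all 8 lists (10 without ASH1L-/- unchallenged replicate 2). Separating sites by UV were 1 to 2 (2 without replicate 1 of WT unchallenged, ASH1L-/- unchallenged or ASH1L-/- UV, or without WT UV replicate 2). With a 50% overlap 3 sites separated by UV. The causes were not tested.

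The replicate numbers gave deviations with correlations between -0.0674 and 0.115 over 13492 genes and were not taken to pair samples. With a replicate block 0 promoters, 0 widths and 0 local backgrounds were called for either contrast, since 36 assignments cannot go below an exact permutation p of 0.0556. The lists hold regions, not reads, so signal below the peak caller's limit was not analysed here, and with 2 libraries a group only differences without overlap could reach the smallest p.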
